A study of Homo sapiens with 20 samples.

Results

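The hypoxia response genes described here were HIF1A, CA9, CA12, VEGFA, ADM, NDRG1, BNIP3, EGLN3, DDIT4 and ANKRD37. They were picked by name, with earlier results of these data known. All 10 were found among the 60271 genes of the deposited table and among the 16522 genes that passed the filter on low counts. RNA was measured in MDA-MB-468, a human triple-negative breast cancer cell line, in 5 groups of 4 libraries each. The control group was left untreated, and the other groups received 50 ng/mL epidermal growth factor (EGF) for 12, 24, 48 or 72 h, a treatment used by the authors to induce epithelial-mesenchymal transition (EMT). Control and EGF-treated cells alike were deprived of serum for 24 h before EGF was first added. Per the labels the groups went through seeding and harvest as 1 set and differed in when EGF was given. On that schedule, a shorter EGF-treatment came after a longer time without serum. The length of treatment and that time cannot be told apart. The protocol describes an incubator at 5% CO2 and no step at low oxygen, and a single cell line was used, so the values describe these genes under EGF and not under hypoxia.

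Cells answer to a lack of oxygen through hypoxia-inducible factors (HIFs), which pair an alpha subunit such as HIF-1α, encoded by HIF1A, with a stable beta subunit. In the presence of oxygen, prolyl hydroxylases of the EGLN family mark the alpha subunit for the von Hippel-Lindau ubiquitin ligase, and the protein is degraded. Regulation of HIF-1α is therefore largely at the protein level, which was not measured in these libraries. Stabilized HIF binds short DNA elements with the core ACGTG or GCGTG and raises genes of glycolysis, pH control, vessel growth and survival. Growth factor signaling through mTOR can raise HIF-1α in the presence of oxygen as well, and several of the genes named here also answer to other regulators.

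The 250 bases before the annotated start are shown for 5 of the genes, taken from RefSeq (GRCh38.p14), because they cover a range from no HIF core to several. Capitals mark ACGTG or GCGTG on either strand, so that CACGT and CACGC are cores read from the opposite strand. CA9 (chr9:35673678-35673927, + strand) held 1 core next to the start. ANKRD37 (chr4:185396591-185396840, + strand) and BNIP3 (chr10:131981924-131982173, - strand) each held a CACGTG, which is also the E-box and counts as ACGTG on both strands. DDIT4 (chr10:72273674-72273923, + strand) held cores of both kinds, and EGLN3 (chr14:33951075-33951324, - strand) held none.
CA9: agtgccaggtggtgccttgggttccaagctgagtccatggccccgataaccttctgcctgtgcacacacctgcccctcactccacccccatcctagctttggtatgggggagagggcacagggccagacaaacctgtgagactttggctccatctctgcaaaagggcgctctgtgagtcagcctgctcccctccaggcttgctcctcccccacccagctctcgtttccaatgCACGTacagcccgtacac
ANKRD37: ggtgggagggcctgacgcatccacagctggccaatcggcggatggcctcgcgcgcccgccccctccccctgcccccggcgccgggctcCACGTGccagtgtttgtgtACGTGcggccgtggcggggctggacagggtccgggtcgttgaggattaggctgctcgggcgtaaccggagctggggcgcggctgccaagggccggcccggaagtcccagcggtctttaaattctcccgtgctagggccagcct
DDIT4: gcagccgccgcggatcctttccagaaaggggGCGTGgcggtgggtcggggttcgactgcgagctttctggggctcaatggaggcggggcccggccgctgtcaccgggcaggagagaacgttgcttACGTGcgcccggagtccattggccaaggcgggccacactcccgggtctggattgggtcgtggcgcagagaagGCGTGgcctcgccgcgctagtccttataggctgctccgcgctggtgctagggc
BNIP3: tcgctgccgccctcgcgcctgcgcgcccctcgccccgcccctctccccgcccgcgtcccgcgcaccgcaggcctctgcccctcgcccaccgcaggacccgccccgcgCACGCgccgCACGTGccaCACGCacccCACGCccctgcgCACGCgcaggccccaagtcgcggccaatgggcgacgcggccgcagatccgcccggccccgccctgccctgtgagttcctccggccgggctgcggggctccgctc
EGLN3: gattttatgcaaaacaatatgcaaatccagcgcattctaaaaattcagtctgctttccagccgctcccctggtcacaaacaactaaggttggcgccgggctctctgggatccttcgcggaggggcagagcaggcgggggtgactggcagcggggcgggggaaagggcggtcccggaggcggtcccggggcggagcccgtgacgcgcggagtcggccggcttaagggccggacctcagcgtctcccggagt

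RefSeq windows of 300 bases, with 250 before and 50 after the start, were matched for 8 of the 10 genes, namely all but VEGFA and NDRG1. HIF1A has 2 starts, which gives 9 windows. ANKRD37 had 3 matches to ACGTG, of which 2 are the CACGTG read from both strands. BNIP3 had 2 matches to ACGTG, both in its CACGTG, and 4 to GCGTG. DDIT4 had 1 match to ACGTG and 3 to GCGTG, CA9 had 1 to ACGTG at -18 to -14 from the start, and CA12 had 2 to GCGTG. ADM and the first start of HIF1A had 1 match to GCGTG each, while EGLN3 and the second start of HIF1A had none. Of 35116 windows of the same length, 21.4% hold ACGTG, 36.5% hold GCGTG, 7.26% hold CACGTG and 48.4% hold either core, beside 7 of the 9 windows here. A match is a stretch of letters and does not show that a factor binds there.

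**Figure D1:**
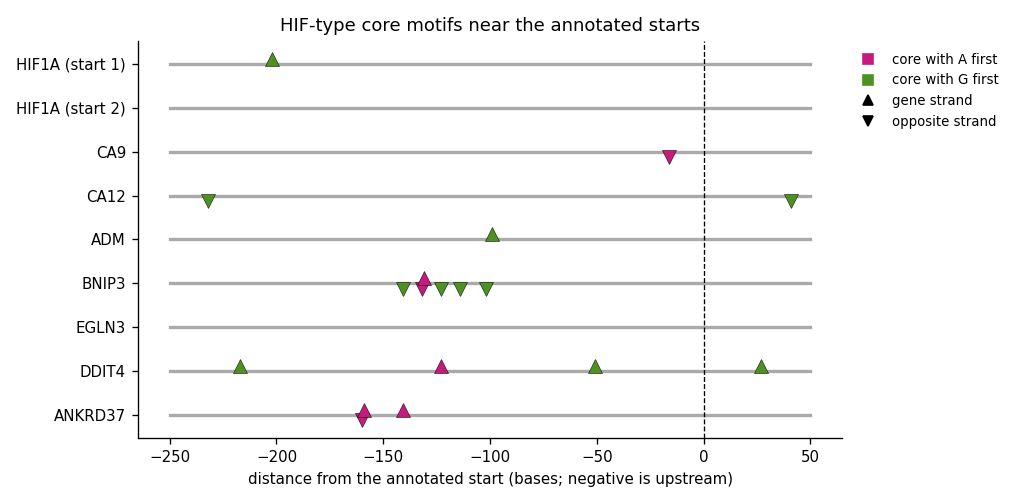
HIF-type cores in the 9 promoter windows, by distance in bases from the annotated start (dashed line, negative values upstream). Upward triangles lie on the gene's strand and downward triangles on the opposite strand, in pink for the core that begins with A and in green for the core that begins with G. BNIP3 and ANKRD37 carry clusters of cores, and no core is drawn for EGLN3 or for the second start of HIF1A.

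The libraries held between 15611961 and 25856953 counts, with a median of 20398047. Mitochondrial genes took 7.69 to 16.9% of the counts, with a mean of 9.41% at 12 h and 15.0% at 72 h. Their part in the results was not tested. The epithelial markers EPCAM, CDH1, KRT5, KRT8, KRT18, KRT19 and EGFR were all expressed, with EGFR at a mean of 3470 CPM in the control. They moved with the treatment. At 12 h all 7 were called higher, and at 24 h 5 were higher and 1 lower. At 48 h 1 was higher and 2 lower, and at 72 h 3 were higher and 2 lower. Of all genes, 32.9%, 29.2%, 24% and 30.6% were called higher in order of time, and 36.5%, 29.6%, 21.8% and 31% lower. From the control to 12 h, KRT18 went from a mean of 788 to 5140 CPM, KRT5 from 198 to 1300 CPM and EGFR to 11800 CPM, and by 48 h these means were 835, 189 and 5610 CPM. The part of these markers in the 12 h values of the hypoxia response genes was not tested. Of the receptors low in triple-negative cells, PGR was at 0 counts in all libraries, ESR1 had a mean of 5.03 CPM and ERBB2 of 21.5 CPM in the control. Of the leukocyte and endothelial markers, PTPRC, CD3E, VWF and CDH5 stayed at means of at most 0.265 CPM, and CD14, CD68 and PECAM1 were detected. CD68, a lysosomal protein also found outside macrophages, had a mean of 1.15 CPM in control libraries and 26.7 CPM after 72 h.

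EGF changed most of the hypoxia response genes, but not as a single block. By the same test, 69.4%, 58.8%, 45.8% and 61.6% of all genes changed at 12, 24, 48 and 72 h. VEGFA, ADM, NDRG1 and DDIT4 were upregulated at all 4 time points, and EGLN3 was downregulated at all 4. CA12 fell at 12 and 24 h, HIF1A rose at 12, 24 and 72 h, CA9 rose at 12, 48 and 72 h, ANKRD37 rose at 12 and 72 h, and BNIP3 rose slightly at 12 h and fell at 48 and 72 h. Levels are given as CPM, the count scaled to a common library total, after TMM normalization, which is comparable between libraries for the same gene. Fold changes, standard errors (SE) and adjusted p were taken from edgeR's quasi-likelihood test over all 16522 genes, with 0.05 as the threshold, and a gene past it is called. Since RNA came from whole cultures, a change in the level per cell and a change in the share of cells that express a gene cannot be told apart, and all 4 time points were set against the same 4 control libraries.

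After 12 h of EGF, 8 of the 10 genes were called higher and 2 lower, against 32.9% and 36.5% of all genes tested (69.4% called in either direction). At 24 h there were 5 higher and 2 lower, against 29.2% and 29.6% (58.8% in all). The counts at 48 h were also 5 and 2, against 24% and 21.8% (45.8% in all). At 72 h 7 were higher and 2 lower, against 30.6% and 31% (61.6% in all). When any 1 of the compared libraries was left out, only 7 to 8 of the genes were called at 72 h. Over the 10 genes the median log2 fold change reached 0.91 after 12 h and 0.84 after 72 h, with 0.53 and 0.43 at the 24 and 48 h points, where the median of all genes, in order of time, lay at -0.054, -0.0071, 0.0099 and -0.0090. Of the 40 values against the control, 33 were called, 25 of them higher and 8 lower, and in 30 of the 33 the EGF libraries and the controls did not overlap. All 4 EGF libraries lay above all controls for 6, 5, 5 and 6 genes in order of time, which holds for 29.4%, 24.2%, 19.6% and 26.1% of all genes. They lay below for 2 genes at each time, beside 31.4%, 24%, 15.3% and 25.9% of all genes. Genes called higher at all 4 times made up 11.2% of those tested, and genes called lower at all 4 made up 10.4%. Because the 10 genes were chosen with earlier results known, these counts do not test the list.

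**Figure D2:**
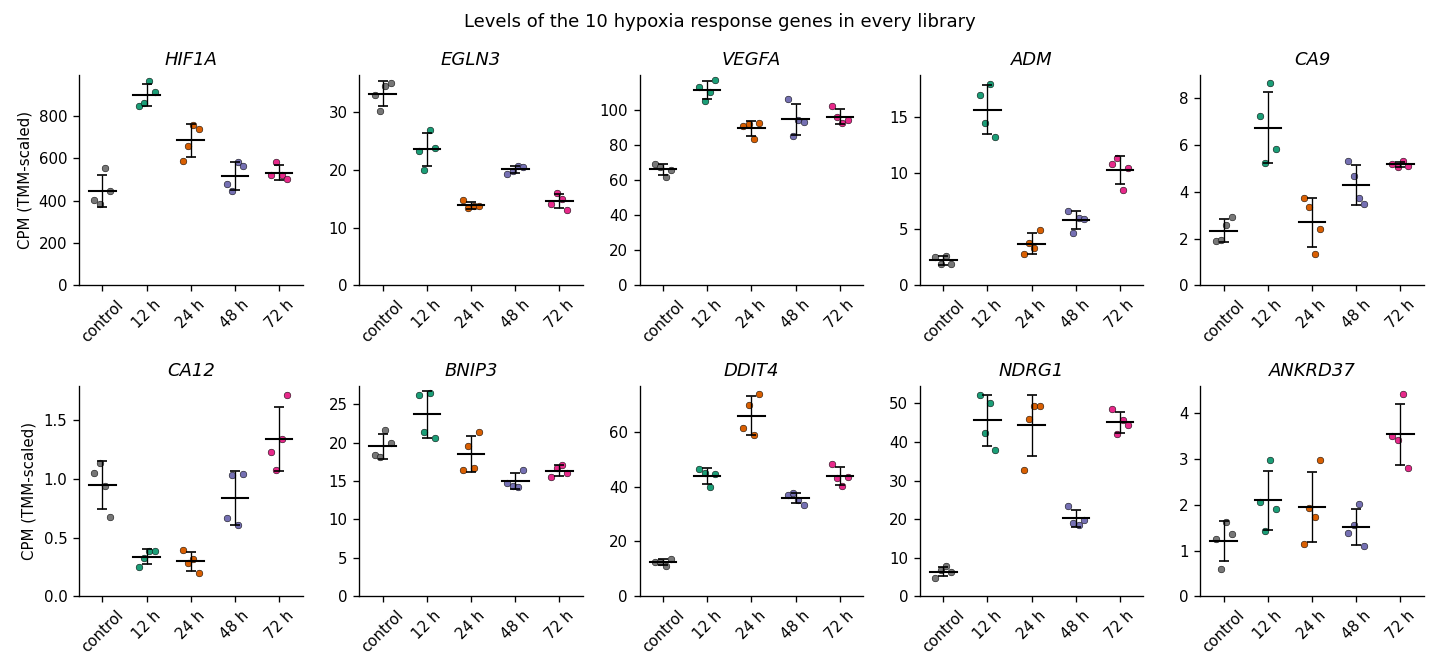
Level of each of the 10 genes in every library, in CPM after TMM normalization, for the control and for each of the 4 EGF-treatments. Points are the 4 libraries of a group, the line is their mean and the bar 1 SD. The axis of each panel starts at 0. NDRG1 and DDIT4 lie above the controls in all 16 EGF libraries, and EGLN3 lies below them in all 16.

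HIF1A, the oxygen-regulated subunit of HIF-1, was the most abundant of the 10 (ENSG00000100644, chromosome 14, 61695513 to 61748259, + strand, 17 exons in the GENCODE 29 annotation with overlapping exons merged). Its level in replicates 1 to 4 was 402, 385, 554 and 443 CPM in the control. At 12 h it was 848, 861, 963 and 911 CPM, at 24 h 587, 655, 758 and 735 CPM, at 48 h 476, 444, 583 and 564 CPM, and at 72 h 520, 583, 522 and 501 CPM. The 12 h and 24 h libraries lay above every control, and at 72 h only 1 of 4 did, and control replicate 3 stood above the other controls. The mean rose from 446 ± 75.9 CPM (SD, n = 4) to 896 ± 52.4 CPM at 12 h, a log2 fold change of 1.01 ± 0.10 (SE, adjusted p = 9.25e-09). It was still raised at 24 h, by 0.62 ± 0.10 (adjusted p = 2.01e-05). At 48 h the change was 0.21 with a 95% interval from 0.0093 to 0.41, which did not pass after adjustment (adjusted p = 0.0979), and at 72 h it was 0.25 (adjusted p = 0.0383). The call at 72 h was lost without control replicate 1 (0.20), 2 (0.19) or 4 (0.25), without the 72 h replicate 2 (0.21) or 3 (0.26), without TMM factors (0.18), and without the filter on low counts (0.25). Of the antisense genes at this locus, HIF1A-AS3 was measured at a mean of 5.81 CPM in the control and was not called at any time.

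EGLN3, the prolyl hydroxylase PHD3 that helps to mark HIF-1α for degradation and is itself a HIF target, moved the other way (ENSG00000129521, chromosome 14, 33924231 to 34462774, - strand, 19 exons). The controls held 32.9, 30.2, 34.5 and 34.9 CPM. EGF-treated cells held 23.3, 19.9, 26.9 and 23.8 CPM at 12 h, 14.7, 13.3, 13.8 and 13.7 CPM at 24 h, 19.3, 19.7, 20.7 and 20.4 CPM at 48 h, and 14.1, 16.0, 14.9 and 13.1 CPM at 72 h. No EGF library reached the lowest control. The log2 fold change was -0.50 ± 0.083 (SE, adjusted p = 1.16e-05) at 12 h and -1.25 ± 0.086 (adjusted p = 9.85e-12) at 24 h, when the level was lower than in the control by a factor of 2.38. It was -0.72 (adjusted p = 1.59e-07) at 48 h and -1.19 (adjusted p = 1.91e-11) at 72 h. EGLN3 is the gene among the 10 whose 48 h libraries stood higher than those of both neighbouring times, without overlap.

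Among the secreted ligands, VEGFA, the main driver of new vessel growth, rose modestly and stayed up (ENSG00000112715, chromosome 6, 43770184 to 43786487, + strand, 4 merged exons). Its controls were at 69.2, 67.6, 61.8 and 65.7 CPM. The EGF libraries were at 113, 105, 110 and 117 CPM at 12 h, 90.4, 91.8, 83.1 and 92.2 CPM at 24 h, 106, 84.9, 93.8 and 93.1 CPM at 48 h, and 102, 95.8, 92.3 and 93.9 CPM at 72 h. All 16 lay above all 4 controls, and the 12 h libraries were the highest apart from 48 h replicate 1. The log2 fold change against the control came to 0.75 ± 0.068 (SE, adjusted p = 7.86e-10) at 12 h, 0.44 ± 0.068 (adjusted p = 6.8e-06) at 24 h, 0.51 ± 0.068 (adjusted p = 1.2e-06) at 48 h and 0.54 ± 0.068 (adjusted p = 2.62e-07) at 72 h. From 24 h on, the differences between successive times were 0.078 and 0.026 and did not pass the test (95% intervals -0.054 to 0.21 and -0.11 to 0.16).

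ADM, the vasodilator peptide adrenomedullin, showed an early peak and a second rise (ENSG00000148926, chromosome 11, 10304680 to 10307397, + strand, 1 merged exon). The controls held 2.56, 1.93, 2.65 and 1.87 CPM, which corresponds to 39 to 62 counts. At 12 h it stood at 16.9, 14.4, 17.9 and 13.2 CPM, at 24 h at 2.82, 3.79, 3.33 and 4.93 CPM, at 48 h at 6.59, 4.69, 5.96 and 5.94 CPM, and at 72 h at 10.8, 11.3, 8.49 and 10.4 CPM. All EGF libraries exceeded all controls, although the lowest 24 h library was close to the highest control. ADM rose 6.90-fold by 12 h (log2 fold change 2.79 ± 0.16, SE, adjusted p = 3.54e-13). At 24 h 1.65-fold remained (0.73 ± 0.18, adjusted p = 0.00129), followed by 2.57-fold at 48 h (1.36 ± 0.17, adjusted p = 5.56e-07) and 4.54-fold at 72 h (2.18 ± 0.17, adjusted p = 5.2e-11). Each successive difference passed the test, at -2.06, 0.64 and 0.82.

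CA9 and CA12 encode carbonic anhydrases at the cell surface, which buffer the acid made by glycolytic cells. CA9, a classical HIF-1 target (ENSG00000107159, chromosome 9, 35673856 to 35681159, + strand, 11 exons), was at 1.91, 1.93, 2.60 and 2.93 CPM in the control. It was at 7.22, 5.23, 8.62 and 5.83 CPM at 12 h, 3.71, 3.33, 1.35 and 2.39 CPM at 24 h, 5.32, 4.65, 3.72 and 3.49 CPM at 48 h, and 5.20, 5.06, 5.31 and 5.11 CPM at 72 h. The 24 h libraries overlapped the controls on both sides, while those of the other times lay above them. The log2 fold change was 1.52 ± 0.22 (SE, adjusted p = 1.33e-06) at 12 h, 0.86 ± 0.22 (adjusted p = 0.00262) at 48 h and 1.14 ± 0.22 (adjusted p = 9.62e-05) at 72 h. The 24 h difference of 0.22 did not pass (adjusted p = 0.442, 95% interval -0.24 to 0.67).

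ARHGEF39, a gene on the opposite strand, shares 38.5% of the exonic bases of CA9. Whether counting used strand is not stated in the sources used here, and without strand the reads of such a pair cannot be separated. ARHGEF39 had 55.8 ± 3.20 CPM (SD, n = 4) in the control, more than CA9, and went the other way, with log2 fold changes of -1.95, -1.29 and -1.23 at 12, 24 and 72 h (adjusted p = 1.93e-14, 3.02e-11 and 5.77e-11). Its value at 48 h was -0.15 (adjusted p = 0.196).

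CA12, whose product does the same reaction (ENSG00000074410, chromosome 15, 63321378 to 63382161, - strand, 13 exons), was near the limit of detection, with 4 to 32 counts per library. The controls were at 1.05, 1.14, 0.939 and 0.673 CPM. It stood at 0.253, 0.327, 0.387 and 0.383 CPM at 12 h, 0.395, 0.283, 0.321 and 0.195 CPM at 24 h, 0.665, 1.03, 0.608 and 1.04 CPM at 48 h, and 1.23, 1.08, 1.34 and 1.72 CPM at 72 h. All 8 libraries of the first day lay below all controls, and those of 48 h and 72 h overlapped them. CA12 fell by 1.48 ± 0.30 (SE) on the log2 scale at 12 h (adjusted p = 0.000103) and by 1.66 ± 0.30 at 24 h (adjusted p = 5.55e-05). At 48 h the change was -0.19 (adjusted p = 0.572, 95% interval -0.69 to 0.31) and at 72 h 0.49 (adjusted p = 0.0938, 95% interval -0.00060 to 0.97).

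NDRG1, a stress-induced gene that can restrain metastasis and is strongly raised by hypoxia in many cell types (ENSG00000104419, chromosome 8, 133237171 to 133302022, - strand, 25 exons), had the highest fold change of the 10 at each time, though ADM at 12 h and DDIT4 at 48 h came within its SE. The controls were at 4.87, 6.69, 7.81 and 6.25 CPM. The 12 h libraries were at 52.2, 42.4, 50.0 and 38.0 CPM, the 24 h libraries at 32.7, 46.0, 49.3 and 49.3 CPM, the 48 h libraries at 23.5, 19.0, 18.6 and 19.8 CPM, and the 72 h libraries at 48.5, 42.0, 45.7 and 44.3 CPM. Groups at 12, 24 and 72 h overlapped each other, and the 48 h group stood between them and the controls without touching either. NDRG1 rose 7.09-fold by 12 h (log2 fold change 2.82 ± 0.14, SE, adjusted p = 2.69e-14), 6.88-fold at 24 h (adjusted p = 5.44e-14), 3.13-fold at 48 h (1.65 ± 0.14, adjusted p = 1.75e-09) and 7.02-fold at 72 h (adjusted p = 3.33e-14).

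For NDRG1 the deposited normalized values divided by the counts ranged from 0.227 to 3.34 over the libraries, a spread of 14.7 times. For CA12 this spread was 7.60 times, and for the other 8 genes the factors lay between 0.696 and 1.74. With these factors, an alternative added after the data were seen, the log2 fold changes of NDRG1 were 3.29, 4.06, 2.34 and 2.68 in order of time, all called. Its rise from 48 to 72 h shrank to 0.33 under them and was no longer called (adjusted p = 0.681), as was its 48 h difference from the neighbouring times (-1.02, adjusted p = 0.0987).

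DDIT4, also named REDD1, slows the growth kinase mTORC1 under hypoxia and other stress (ENSG00000168209, chromosome 10, 72273920 to 72276036, + strand, 2 exons). Its levels were 12.4, 12.5, 11.1 and 13.6 CPM in the control. They were 46.4, 45.1, 39.8 and 44.7 CPM at 12 h, 61.3, 69.8, 58.8 and 73.7 CPM at 24 h, 37.1, 37.7, 35.1 and 33.4 CPM at 48 h, and 48.4, 43.1, 40.4 and 43.4 CPM at 72 h. Every EGF library held more than the highest control, and the 24 h libraries were above all others. DDIT4 rose 3.55-fold at 12 h (log2 fold change 1.83 ± 0.087, SE, adjusted p = 8.29e-15), 5.32-fold at 24 h (2.41 ± 0.088, adjusted p = 6.94e-17), 2.89-fold at 48 h (1.53 ± 0.087, adjusted p = 7.39e-13) and 3.55-fold at 72 h (adjusted p = 9.44e-15). DDIT4-AS1 on the opposite strand shares 41.2% of its exonic bases in the annotation and was not analysed here.

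BNIP3, a receptor on the outer mitochondrial membrane that recruits mitochondria to autophagy, changed little (ENSG00000176171, chromosome 10, 131966455 to 131982013, - strand, 5 exons). It was at 18.4, 18.1, 21.6 and 20 CPM in the control. The EGF libraries were at 26.2, 21.4, 26.5 and 20.6 CPM at 12 h, 16.4, 19.6, 16.7 and 21.4 CPM at 24 h, 14.8, 14.4, 14.2 and 16.5 CPM at 48 h, and 15.5, 16.7, 17.1 and 16.0 CPM at 72 h. At 12 h 2 of the 4 libraries exceeded all controls, and the 48 h and 72 h libraries lay below all of them. The log2 fold change was 0.28 ± 0.098 (SE, adjusted p = 0.0158) at 12 h, -0.076 (adjusted p = 0.534, 95% interval -0.27 to 0.12) at 24 h, -0.38 ± 0.10 (adjusted p = 0.00304) at 48 h and -0.26 ± 0.10 (adjusted p = 0.0298) at 72 h. Many processed copies of BNIP3 lie in the genome, and none held more than 13 counts in a library.

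These small changes of BNIP3 depended on the setting. The 12 h call was lost without the 12 h replicate 1 (0.23) or 3 (0.22) and with upper quartile factors (0.12), and its direction turned without TMM factors (-0.010), a setting that moved the median of all genes by -0.28. The fall at 72 h was lost without control replicate 3 (-0.21) or 4 (-0.25) and without the 72 h replicate 1 (-0.22) or 4 (-0.25). It was also lost when each library had to hold at least 10 counts of a gene (-0.20), without a filter (-0.26) and with factors per gene (-0.078), which ended the call at 48 h too (-0.19).

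ANKRD37, an ankyrin repeat protein known as a HIF-1 target, had few reads, 14 to 91 per library (ENSG00000186352, chromosome 4, 185396021 to 185400628, + strand, 5 exons). The controls held 1.26, 0.589, 1.62 and 1.35 CPM. Its levels were 2.07, 1.42, 2.98 and 1.91 CPM at 12 h, 1.14, 1.92, 1.73 and 2.98 CPM at 24 h, 1.39, 1.56, 2.01 and 1.09 CPM at 48 h, and 3.51, 3.41, 4.41 and 2.81 CPM at 72 h. The 72 h libraries stood apart above the controls, and 3 of 4 did so at 12 h. The rise at 72 h was 2.94-fold (log2 fold change 1.56 ± 0.29, SE, adjusted p = 5.59e-05). At 12 h the change of 0.80 ± 0.30 passed (adjusted p = 0.0206), but not without control replicate 2 (0.57), without the 12 h replicate 3 (0.59), with upper quartile factors (0.64) or without TMM factors (0.51). The values at 24 h (0.70, adjusted p = 0.0504, 95% interval 0.11 to 1.29) and at 48 h (0.35, adjusted p = 0.372, -0.25 to 0.94) did not pass, although the 24 h value did with factors per gene (0.92, adjusted p = 0.0199). UFSP2 on the opposite strand shares 35.2% of the exonic bases of ANKRD37 and averaged 35.3 ± 5.64 CPM (SD, n = 4) over the controls. UFSP2 fell by 0.59 on the log2 scale at 12 h (adjusted p = 3.21e-05) and by 0.41 at 24 h (adjusted p = 0.00182).

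**Figure D3:**
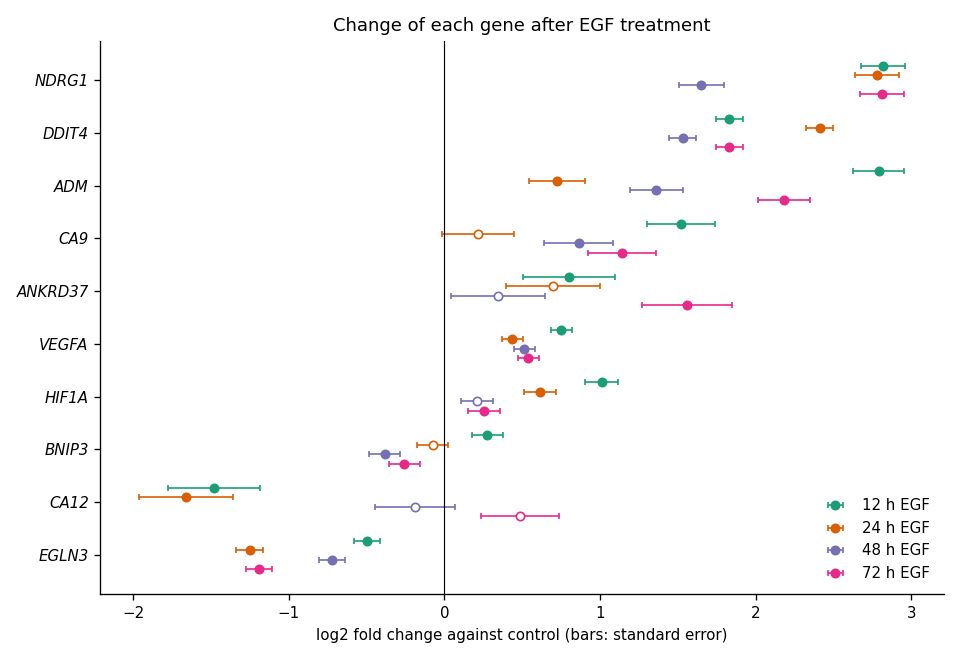
Log2 fold change of each of the 10 genes against the untreated control in colours for the 4 lengths of EGF-treatment, with bars of 1 SE from edgeR. Filled points are called (adjusted p under 0.05) and open points are not. NDRG1, DDIT4 and ADM lie farthest to the right, EGLN3 and the first 2 time points of CA12 to the left.

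The genes were then compared between successive times of EGF-treatment. Between 12 and 24 h, 6 of the 10 fell and 1, DDIT4, rose, where 25.9% of all genes were called lower and 27.9% higher (53.7% in all). ADM fell by 2.06, CA9 by 1.30, EGLN3 by 0.76, HIF1A by 0.39, BNIP3 by 0.35 and VEGFA by 0.31 on the log2 scale. NDRG1 (-0.043, 95% interval -0.29 to 0.20), ANKRD37 (-0.10, -0.67 to 0.46) and CA12 (-0.18, -0.87 to 0.52) did not pass the test. Between 24 and 48 h, 4 rose and 4 fell, beside 25.9% and 24.3% of all genes (50.2% in all). CA12 rose by 1.47, CA9 by 0.65, ADM by 0.64 and EGLN3 by 0.53, while NDRG1 fell by 1.13, DDIT4 by 0.88, HIF1A by 0.40 and BNIP3 by 0.31. The rise of CA9 was lost without the 24 h replicate 3 (0.44) or 4 (0.59), without the 48 h replicate 1 (0.53) and with factors per gene (0.55). Between 48 and 72 h, 5 rose and EGLN3 fell, beside 17.9% in each direction (35.7% in all). ANKRD37 rose by 1.21, NDRG1 by 1.16, ADM by 0.82, CA12 by 0.68 and DDIT4 by 0.29, and EGLN3 fell by 0.47. With factors per gene the rises of NDRG1 (0.33) and DDIT4 (0.26) were not called. That of CA12 was lost without the 48 h replicate 1 (0.59) or 3 (0.54), without the 72 h replicate 1 (0.73), 3 (0.68) or 4 (0.55), and in the DESeq2 Wald test (0.70). The fall of BNIP3 between 24 and 48 h was lost without the 24 h replicate 4 (-0.23) and without TMM factors (-0.15), which ended its fall between 12 and 24 h too (-0.21).

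The 48 h libraries were also set against the mean of the 24 and 72 h groups. NDRG1 was lower at 48 h by 1.15 on the log2 scale (-1.15, adjusted p = 3.56e-08), ANKRD37 differed by -0.78 (adjusted p = 0.0142), DDIT4 by -0.59 (adjusted p = 5.69e-07), HIF1A by -0.22 (adjusted p = 0.048) and BNIP3 by -0.22 (adjusted p = 0.0483). EGLN3 was higher by 0.50 (adjusted p = 7.31e-06). That made 5 lower and 1 higher, where 21.8% of all genes were called lower and 23.7% higher (45.5% in all). CA9, CA12, VEGFA and ADM were not called, and for VEGFA the difference was 0.026 with a 95% interval from -0.088 to 0.14. The call of NDRG1 was lost with factors per gene (-1.02), and that of ANKRD37 without the 48 h replicate 4 (-0.65). Those of HIF1A and BNIP3 lay at the threshold. The call of HIF1A was lost without the 24 h replicate 2, 3 or 4, the 48 h replicate 1 or 2, or the 72 h replicate 1, 2 or 3, with values from -0.23 to -0.16. The call of BNIP3 was lost without the 24 h replicate 2 or 4, the 48 h replicate 1, 2 or 3, or the 72 h replicate 2, 3 or 4, with values from -0.22 to -0.18.

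Between genes, levels were compared per kilobase of merged exons. This length joins all annotated exons of a gene and can exceed that of its transcripts, whose lengths were not used. It was 14.4 kb for VEGFA and 2.06 kb for DDIT4, so the order below depends on the annotation. HIF1A led in every group, with a mean of 86.6 CPM per kilobase in the control and 174 at 12 h. DDIT4 came next in all groups, at 6.03 in the control and 32.0 at 24 h, and VEGFA followed, at 4.58 in the control and 7.71 at 12 h. EGLN3, at 4.50, came after VEGFA in the control, where its range of 4.10 to 4.74 overlapped that of VEGFA (4.28 to 4.80), and its rank fell to 8 of 10 at 12 and 72 h. NDRG1 moved from rank 8 in the control (0.652) to rank 4 at 24 and 72 h (4.51 and 4.59). CA12 was the lowest of the 10 in every group, at 0.0408 to 0.184 CPM per kilobase.

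Related genes were read as lists, chosen with earlier results of these data known. Of the 13 other HIF subunit and oxygen sensing genes, 4, 2, 2 and 4 were called higher and 4, 3, 3 and 6 lower in order of time. Of all genes tested, 32.9%, 29.2%, 24% and 30.6% were called higher and 36.5%, 29.6%, 21.8% and 31% lower. EPAS1, which encodes HIF-2α, rose at all 4 times (0.70, 0.18, 0.29 and 0.20 on the log2 scale). EGLN1, the main oxygen-sensing hydroxylase, fell at all 4 (-0.81, -0.76, -0.47 and -0.74), and EGLN2 rose at 12 h (0.72, adjusted p = 2.26e-05) and was not called at the other times. VHL, which targets HIF-α for degradation, fell at 12, 48 and 72 h (-0.38, -0.40 and -0.33). HIF1AN, the asparaginyl hydroxylase that silences HIF, fell at 12 and 72 h (-0.38 and -0.19). CITED2, which competes with HIF-1α for the coactivator p300, rose at 12 h (0.31) and fell at 24, 48 and 72 h (-0.95, -0.53 and -0.74). Of the other listed genes, ELOC rose at 12 h (0.39) and CUL2 at 24 h (0.41). ARNT and ARNT2 rose at 72 h (0.22 and 2.50). HIF3A, with a control mean of 0.446 CPM, rose at 48 and 72 h (0.835 and 0.933). ELOB fell at 24 and 72 h (-0.23 and -0.25), and RBX1 at 12 and 72 h (-0.18 and -0.17).

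The glycolysis genes known to be induced by HIF were mostly higher at 12 and 24 h. Of 18 tested, all 18 were called higher after 12 h, and 15, 10 and 10 at the later times. In order of time, 0, 0, 3 and 1 were called lower. The shares of all genes were 32.9%, 29.2%, 24% and 30.6% higher and 36.5%, 29.6%, 21.8% and 31% lower. The median log2 fold change of the 18 was 0.60, 0.39, 0.29 and 0.25. PFKP, a phosphofructokinase, rose by 2.49, 1.95, 1.01 and 1.80 at the 4 times, and ENO2, an enolase, by 1.67, 2.13, 1.20 and 2.62. SLC16A3, the lactate exporter MCT4, rose by 1.39, 1.49, 1.67 and 2.10, and HK2, the first enzyme of glycolysis, by 1.49, 1.26, 0.68 and 1.86. The 3 that were lower at 48 h, PFKL (-0.30), PGAM1 (-0.16) and PGK1 (-0.13), were higher at 12 h (0.27, 0.48 and 0.45). PGK1 was also higher at 24 h (0.35), and PFKL also lower at 72 h (-0.30).

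Of 28 other HIF targets tested, 16, 12, 12 and 16 were higher and 6, 4, 4 and 5 lower in order of time, with medians of 0.37, 0.13, 0.20 and 0.35. Among all genes, 32.9%, 29.2%, 24% and 30.6% were higher and 36.5%, 29.6%, 21.8% and 31% lower. RORA, a nuclear receptor, rose by 1.70, 2.77, 1.39 and 2.63. LOX, which crosslinks collagen, rose by 2.90, 2.09, 1.29 and 2.89 at the 4 times. PPP1R3C, which promotes glycogen storage, fell by 3.87, 1.89, 0.54 and 1.07, with a mean of 30.1 CPM in control cells and 2.05 CPM after 12 h. EGLN1, which is also in the oxygen sensing list, was lower at all 4 times. BNIP3L, the relative of BNIP3, was lower at 48 h (-0.43).

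**Figure D4:**
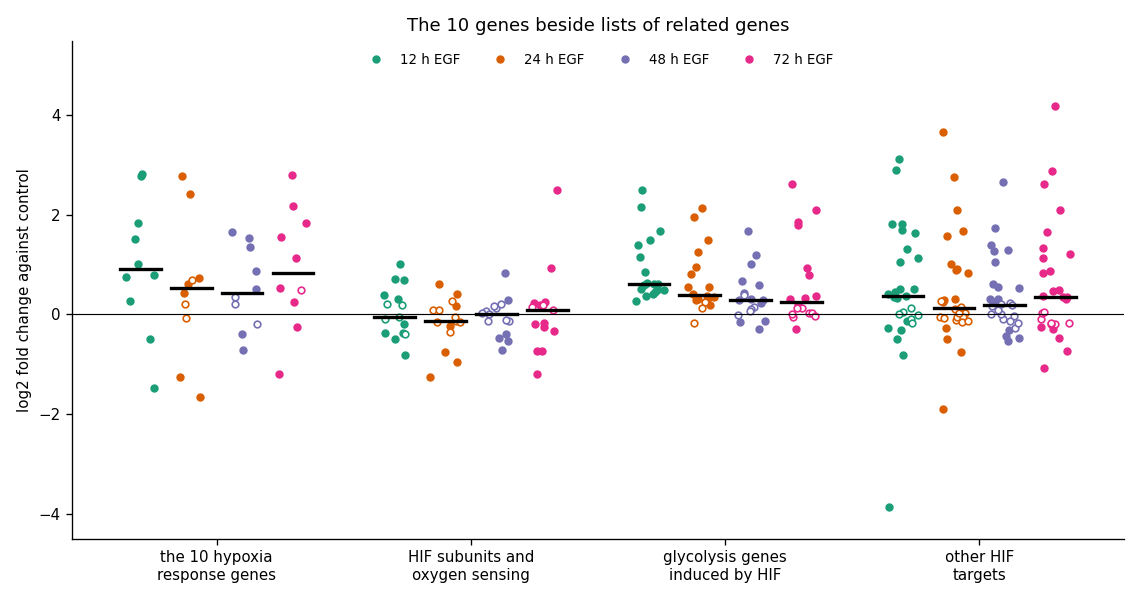
Log2 fold change against the control of the 10 hypoxia response genes and of the genes tested in 3 related lists, by length of EGF-treatment. Each point is a gene, filled if called and open if not, and the black bar is the median of the list at that time. The glycolysis genes lie above 0 in all cases at 12 h. The medians of the oxygen sensing genes lie near 0, with single genes well above or below, such as ARNT2 at 72 h (2.50) and EGLN3 at 24 h (-1.25).

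Smaller families were read the same way, again beside 32.9%, 29.2%, 24% and 30.6% of all genes called higher and 36.5%, 29.6%, 21.8% and 31% lower. Outside CA9 and CA12, 6 genes of carbonic anhydrases and acid export were tested, of which 3, 4, 3 and 4 were higher and 1, 1, 0 and 1 lower in order of time. SLC16A3, higher at all 4 times, is among these 6 and was counted with the glycolysis genes too. SLC16A1, the lactate transporter MCT1, rose by 1.95, 1.52, 0.73 and 1.57 at the 4 times, and CA5B, a mitochondrial carbonic anhydrase, was lower at 12, 24 and 72 h (-0.31, -0.32 and -0.28). Of the VEGF ligands and receptors, 6 of 10 were tested, and with VEGFA counted 5, 4, 3 and 5 were higher and 1, 0, 1 and 0 lower. NRP2, a coreceptor for VEGF and semaphorins, rose by 2.61, 2.76, 2.44 and 3.44, and VEGFB by 0.47, 0.40 and 0.46 at 12, 48 and 72 h. The receptor FLT1 had a mean of 0.177 CPM in the control, and means of 1.46, 1.79, 0.232 and 0.698 CPM followed in order of time. The receptor genes for adrenomedullin, CALCRL, RAMP1, RAMP2 and RAMP3, did not pass the filter and had means of at most 0.413 CPM. ADM2, which encodes a related peptide, rose at 12 h (0.63) and was not called at the other times.

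Within the NDRG family, NDRG2 fell at 12, 24 and 48 h (-2.12, -2.46 and -0.94), times at which NDRG1 rose, and NDRG3 fell at 12 h (-0.70) and rose at 48 h (0.39). NDRG4 was called higher at 48 and 72 h (adjusted p = 0.00161 and 6.94e-05) from very few counts, with 1 to 3 per control library (mean 0.0668 CPM) and means of 0.382 and 0.567 CPM at those times. Of the mitophagy genes, PINK1, a kinase that marks damaged mitochondria, rose at all 4 times (0.90, 0.98, 1.56 and 1.43), FUNDC1 fell at 12 and 24 h (-0.72 and -0.33), and BNIP3L fell at 48 and 72 h (-0.43 and -0.30). Of the brakes on mTORC1 besides DDIT4, SESN2 rose at all 4 times (1.30, 1.18, 0.91 and 1.31). SESN1 fell at 12, 24 and 72 h (-0.80, -0.29 and -0.59), SESN3 fell at 12, 48 and 72 h (-0.55, -0.88 and -0.82), and TSC1 rose at 12, 24 and 72 h (0.55, 0.35 and 0.35). DDIT4L, a relative of DDIT4, rose at 24, 48 and 72 h (0.82, 0.73 and 2.49), and TSC2 was not called at any time.

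For each of the 10 genes, the genes with the most similar course were sought among 13881 with a mean of at least 1 CPM, by the root mean square difference of the 4 log2 fold changes against the control. For HIF1A these were GSDMC, SAV1 and TIAM1 (0.043, 0.045 and 0.052), and for VEGFA AC083899.1, OPTN and FAM157A (0.035, 0.050 and 0.053). WFDC21P, PPP1R15A and FSTL3 came closest to ADM (0.23, 0.31 and 0.32), and ELFN2, AL136531.2 and SH3TC2-DT to NDRG1 (0.13, 0.20 and 0.21). EGLN3 was most like SIX2, ALDH4A1 and GSR (0.096, 0.096 and 0.10), and DDIT4 most like ANXA3, RHEBL1 and FCRLB (0.17, 0.21 and 0.24). MTDH, LUC7L3 and ELAVL1 followed BNIP3 (0.024, 0.027 and 0.029). CYP4F11, PEDS1-UBE2V1 and PVT1 followed CA9 (0.18, 0.18 and 0.24), AC093001.1, BST2 and RBKS followed CA12 (0.15, 0.23 and 0.27), and KCNG3, AL662899.2 and AL078621.1 followed ANKRD37 (0.14, 0.15 and 0.17). All these courses were set against the same controls, and no gene of the 10 was among the 3 nearest of another.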

How the data were processed

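RNA of MDA-MB-468 cells was extracted with RNeasy columns. Libraries came from the Lexogen Corall mRNA kit, with single-end sequencing on an NS500 instrument from Illumina. The authors deposited, for each of 20 libraries, an estimated count per gene rounded to a whole number. Beside it they deposited a normalized value, a score on the scale of counts made in DESeq2, which differs from the count by a factor per gene and library. Per the labels, hg38 was used. The aligner, the counter, the annotation and the handling of unique molecular identifiers are not given in the sources used here, so counts may hold PCR duplicates. The authors' fold changes and p-values were not used.

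The deposited counts, 15611961 to 25856953 per library, were analyzed in edgeR 4.0.16 (R 4.3.3, limma 3.58.1): filterByExpr with default settings (16522 of 60271 genes), TMM normalization, robust quasi-likelihood fits with a mean for each of 5 groups, Benjamini-Hochberg adjustment over all genes tested, a threshold of 0.05 and a prior count of 0.125. At this depth, genes near 1 CPM have few counts, and their standard errors are large. The labels call the replicates biological and do not say how they were separated, so p-values measure the spread between these libraries. Mean levels are CPM after TMM normalization with the SD, and intervals are 1.96 SE at either side. DESeq2 1.42.0 was an alternative.

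The 10 genes and all lists were chosen with earlier results of these data known. Named are the 10 genes, any gene of the short lists, and the 3 highest and 3 lowest called genes per time of the lists of glycolysis genes, other HIF targets and carbonic anhydrases. A gene named at some times is not always given at the others. Some listed genes are not reported here. Tried besides were other scalings (library size, upper quartiles, size factors of DESeq2), a Wald test in DESeq2, other filters (1 count in all, or 10 counts in each library), a fit to the compared groups alone, the replicate number as a block, glmTreat with a limit of 1.5-fold, a larger prior count (2) and the omission of each library. Factors per gene, the deposited normalized value over the count where each library held 10 counts or more, were added after the data were seen. Positions are from GENCODE 29 and promoters from RefSeq. Figures were drawn with matplotlib 3.10.9 and pandas 2.3.3. The scripts were tested on simulated data.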

Additional observations from a re-analysis of the deposited data

Results flagged for a closer look

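The changes between successive times of EGF-treatment were tested for each of the 10 genes. Of these 30 differences, 21 passed the threshold in edgeR, so that for them the effect against the control differed between neighbouring times. Among all genes, 53.7%, 50.2% and 35.7% passed in the same intervals, in order of time. From 12 to 24 h the log2 differences were -0.39 for HIF1A, -1.30 for CA9, -0.31 for VEGFA, -2.06 for ADM, -0.35 for BNIP3, -0.76 for EGLN3 and 0.58 for DDIT4. From 24 to 48 h they were -0.40 for HIF1A, 0.65 for CA9, 1.47 for CA12, 0.64 for ADM, -1.13 for NDRG1, -0.31 for BNIP3, 0.53 for EGLN3 and -0.88 for DDIT4. From 48 to 72 h they were 0.68 for CA12, 0.82 for ADM, 1.16 for NDRG1, -0.47 for EGLN3, 0.29 for DDIT4 and 1.21 for ANKRD37. EGLN3 and DDIT4 moved in opposite directions in all 3 intervals. The difference of CA12 from 48 to 72 h was lost in several alternatives, among them the DESeq2 Wald test. In none of the 50 groups, 5 per gene, did a library stand apart by Dixon's criterion at the 95% level.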

How the results depend on the processing

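Of 80 comparisons of the 10 genes, 60 were called, and 25 of these kept direction and call under every alternative run. The other 35 lost the call or turned in at least 1, most often under glmTreat, which asks for more than a 1.5-fold change. That setting ended the calls of ANKRD37, BNIP3 and EGLN3 at 12 h and of HIF1A, BNIP3 and VEGFA at 72 h. VEGFA also lost its calls at 24 and 48 h there. Under glmTreat 4 of the 10 genes were called at 24 h, 3 at 48 h, 2 from 12 to 24 h, 3 from 24 to 48 h, 1 from 48 to 72 h and 1 at 48 h against its neighbours, and 10, 10, 6 and 11 of the other HIF targets at 12, 24, 48 and 72 h. Over all genes it called 5753, 3474, 1916 and 3899 against the control, 2199, 1818 and 883 between successive times and 1011 at 48 h against its neighbours. With factors per gene, 3 of the genes were called from 48 to 72 h and 3 at 48 h against its neighbours, and over the 12886 genes with such factors 4648 were called at 48 h, 5329 from 24 to 48 h, 3402 from 48 to 72 h and 4607 at 48 h against its neighbours. CA12 has no value there or with at least 10 counts in every library, because fewer counts leave it out.

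Leaving out each library in turn, the number called was 8 to 10 at 12 h, 7 to 8 at 24 h, 7 to 8 at 48 h, 7 to 8 at 72 h, 7 from 12 to 24 h, 6 to 8 from 24 to 48 h, 5 to 6 from 48 to 72 h and 4 to 6 at 48 h against its neighbours. Directions turned for BNIP3 at 12 h and otherwise only in differences that had not passed the test. Without TMM factors, which moved the median of all genes by -0.28 at 12 h, -0.14 at 24 h, 0.14 from 12 to 24 h, 0.15 from 24 to 48 h and 0.12 at 48 h against its neighbours, BNIP3 at 12 h became -0.010, NDRG1 from 12 to 24 h 0.098, ANKRD37 from 12 to 24 h 0.038, HIF1A from 48 to 72 h -0.049, VEGFA from 48 to 72 h -0.064 and ADM at 48 h against its neighbours 0.030. Upper quartile factors, which moved that median by -0.16 at 12 h and 0.12 from 12 to 24 h, gave 0.070 for NDRG1, 0.0097 for ANKRD37 (both from 12 to 24 h) and -0.015 for VEGFA from 48 to 72 h. Factors per gene gave 0.060 for BNIP3 at 24 h, 0.77 for NDRG1 and 0.058 for ANKRD37 from 12 to 24 h, and -0.0026 for VEGFA from 48 to 72 h. Leaving out single libraries gave -0.12 to 0.078 for NDRG1 and -0.40 to 0.11 for ANKRD37 from 12 to 24 h, -0.026 to 0.10 for HIF1A and -0.021 to 0.084 for VEGFA from 48 to 72 h, and -0.033 to 0.073 for VEGFA at 48 h against its neighbours. The cause was not tested.

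For samples with the same replicate number in different groups, deviations from the group means correlated at -0.35 to 0.49 (median 0.013, over 0.1 in 9 of 40 pairs). With different numbers they correlated at -0.45 to 0.39 (median -0.015, over 0.1 in 21 of 120 pairs). These ranges largely overlapped, so the numbers were not taken as pairs. With the number as a block, 10, 8, 8 and 9 of the genes were called against the control, beside 10, 7, 7 and 9 without it. Of all 16522 genes, 11577, 9868, 7829 and 10310 were called under the block and 11465, 9717, 7562 and 10177 without it. Between successive times the block called 7, 8 and 5 of the 10, and 5 at 48 h against its neighbours. Over all genes these counts were 9094, 8558, 6175 and 7767 under the block and 8879, 8292, 5906 and 7514 without it. Depth limits CA12 and ANKRD37, which had under 100 counts in every library.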
